A study of Mus musculus with 2 samples.

Results

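The dual specificity MAP kinase phosphatases (MKPs) are the 10 genes *Dusp1*, *Dusp2*, *Dusp4*, *Dusp5*, *Dusp6*, *Dusp7*, *Dusp8*, *Dusp9*, *Dusp10* and *Dusp16*, and they were taken as every non-control probe that the array names with one of these symbols. They made up 10 of 37074 gene names on the array and 10 of the 21631 that stood well above background on 1 array or both. Mouse cardiomyocytes (MCMs), bought as cultured cells and passaged, were transfected by Lipofectamine RNAiMAX with siRNA-NC, a negative control siRNA, or with siRNA-*Ppp2r5d*. In both groups the medium was replaced with glucose-free medium at 48 h and RNA was taken at 64 h after transfection. Each group was 1 culture on 1 one-colour Agilent array, both arrays on the same slide and scan, so the differences below have no replicate check, carry no p-value, and their precision is limited by the number of arrays. *Ppp2r5d*, which codes for B56δ, a regulatory subunit of the phosphatase PP2A, had an intensity of 4701 with siRNA-NC and 676.1 with siRNA-*Ppp2r5d*, which was 6.09-fold lower after scaling.

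MKPs remove phosphate from both the threonine and the tyrosine in the activation loop of ERK, p38 and JNK, and so switch these kinases off. Several are themselves transcribed in response to the kinases they inactivate, so that their mRNA serves as a readout of the pathway and as a negative feedback on it. In the heart, MAP kinase signalling and its phosphatases are studied for their part in hypertrophic growth and in the response to stress. The members fall into nuclear enzymes that are induced by growth factors or stress (*Dusp1*, *Dusp2*, *Dusp4*, *Dusp5*), cytoplasmic enzymes that prefer ERK (*Dusp6*, *Dusp7*, *Dusp9*) and enzymes directed at JNK and p38 (*Dusp8*, *Dusp10*, *Dusp16*).

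The 250 bases before the transcript start, from RefSeq on build GRCm38.p6, were searched on both strands for motifs of factors that act on immediate early and MAP kinase responsive genes. A window was found for 8 of the 10 members, all but *Dusp4* and *Dusp9*. The windows of *Dusp8* and *Dusp10* are shown because these members lay at the low and the high end of the fold changes, that of *Dusp1* because it holds a full cyclic AMP response element (CRE), and that of *Dusp5* because it holds the CArG box. Each runs 5′ to 3′ on the strand of its gene, with matches to the full CRE, its core and the CArG box in capitals. The windows are chr7:142095285-142095534 on the minus strand for *Dusp8*, chr1:184034131-184034380 on the plus strand for *Dusp10*, chr17:26508473-26508722 on the minus strand for *Dusp1* and chr19:53528895-53529144 on the plus strand for *Dusp5*.
Dusp8: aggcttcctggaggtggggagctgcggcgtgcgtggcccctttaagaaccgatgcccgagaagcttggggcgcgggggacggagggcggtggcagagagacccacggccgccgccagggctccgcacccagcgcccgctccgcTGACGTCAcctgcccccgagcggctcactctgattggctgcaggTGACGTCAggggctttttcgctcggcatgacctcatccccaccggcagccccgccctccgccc
Dusp10: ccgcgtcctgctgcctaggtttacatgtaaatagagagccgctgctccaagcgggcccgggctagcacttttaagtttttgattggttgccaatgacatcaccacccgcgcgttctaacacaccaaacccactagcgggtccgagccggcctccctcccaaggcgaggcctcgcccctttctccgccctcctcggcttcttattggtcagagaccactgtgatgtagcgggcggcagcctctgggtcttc
Dusp1: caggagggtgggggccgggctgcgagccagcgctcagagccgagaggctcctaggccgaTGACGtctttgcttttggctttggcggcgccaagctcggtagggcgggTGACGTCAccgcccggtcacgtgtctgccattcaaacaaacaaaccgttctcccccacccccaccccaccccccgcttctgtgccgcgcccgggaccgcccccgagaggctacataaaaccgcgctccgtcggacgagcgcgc
Dusp5: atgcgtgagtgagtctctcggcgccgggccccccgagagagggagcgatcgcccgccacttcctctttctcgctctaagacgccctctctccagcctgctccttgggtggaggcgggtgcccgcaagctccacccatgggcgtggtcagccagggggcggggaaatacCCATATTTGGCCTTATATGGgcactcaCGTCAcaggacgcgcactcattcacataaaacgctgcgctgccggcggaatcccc

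The full CRE, TGACGTCA, was present in 1.55% of 32851 windows in the table. *Dusp8* held 2 copies, at -107 to -100 and -63 to -56 from the start, and 10 of all windows (0.0304%) held 2 or more. *Dusp1* held 1 copy, at -143 to -136. The CRE core, TGACG, which is contained in each strand of the full CRE, was present in 17.8% of windows and among the members in *Dusp1*, *Dusp5*, *Dusp8* and *Dusp16*. The CArG box, bound by serum response factor, was present in 1.47% of windows, and *Dusp5* held 2 adjoining copies at -82 to -73 and -72 to -63. The AP-1 motif, TGACTCA or TGAGTCA, was present in 4.46% of windows and in none of the 8. The ETS core, GGAA, was present in 93.4% of all windows and in 5 of the 8, with 6 copies before *Dusp6*. *Dusp7* and *Dusp10* held none of these motifs. The matches describe letters in these windows and were not tested as sites.

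**Figure D1:**
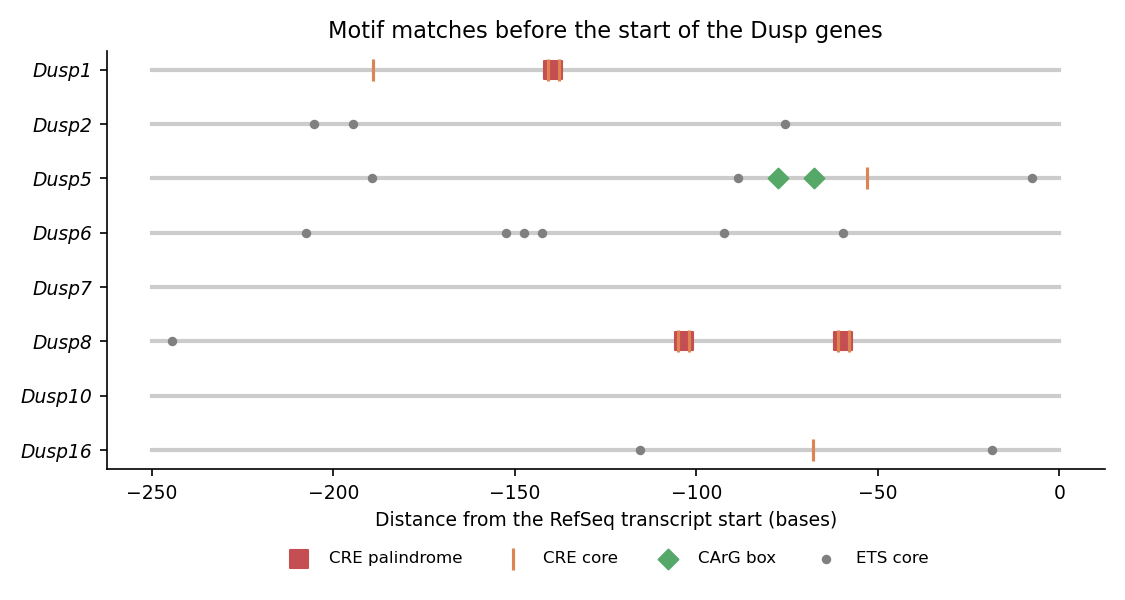
Positions of motif matches in the 250 bases before the RefSeq transcript start of 8 *Dusp* genes (x axis, distance from the start in bases; 1 line per gene). *Dusp8* has 2 full CRE matches and *Dusp1* has 1, the 2 CArG matches of *Dusp5* adjoin each other, and the lines of *Dusp7* and *Dusp10* are empty.

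All 10 members were measured on both arrays. They were read by 15 probes, each printed as 1 spot, and every probe was well above background and not saturated on either array. The probe intensities ran from 52.14 to 17950 in arbitrary units, against a lowest signal well above background of 14.9 with siRNA-NC and 13.5 with siRNA-*Ppp2r5d*. Probes bind with different strengths, so intensities were compared between arrays and not between genes. Intensities are given as deposited. Log2 fold changes, siRNA-*Ppp2r5d* over siRNA-NC, were taken after subtracting the 75th percentile of each array, an intensity of 592 with siRNA-NC and 518 with siRNA-*Ppp2r5d*, so that equal intensities on both arrays give a log2 fold change of 0.19. The scanner software put its own error on the log2 fold change of a member probe at a median of 0.20. For bright probes this error was a fixed share of the signal, such as 1795 on 17951 for *Dusp1*. It is therefore a preset of the software and not a spread measured on these arrays. The same value was set beside genes that are means of several probes. The SD between spots of probes that are printed many times had a median of 0.036 over 283 probes, and of 0.16 over the 9 of these with an intensity under 200, where probes of *Dusp5*, *Dusp9* and *Dusp16* also lay.

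No member was 2-fold higher or lower. Over all genes, the share that was at least 2-fold higher was 1.01%, and the share at least 2-fold lower was 1.42%. *Dusp10* alone was at least 1.5-fold higher, against 3.79% of all genes, and no member was at least 1.5-fold lower, against 5.39%. A log2 fold change below 0 was found in 5 of the 10 members and in 46.0% of the 20311 genes measured on both arrays. The median log2 fold change of the members was -0.0016, beside 0.02 for all these genes. The SD of the log2 fold change was 0.32 across the members and 0.35 across all these genes. Log2 fold changes larger than the software error of 0.20 were found for 4 members, *Dusp4*, *Dusp7*, *Dusp8* and *Dusp10*, and for 42.3% of all genes on both arrays. Which members passed this error changed with the setting, from 4 to 6 members, and *Dusp7*, *Dusp8* and *Dusp10* passed it under each of the 11 alternatives. The alternatives of filter, bounds and outlier flags used the same member probes as reported, so they are not separate checks of the members.

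**Figure D2:**
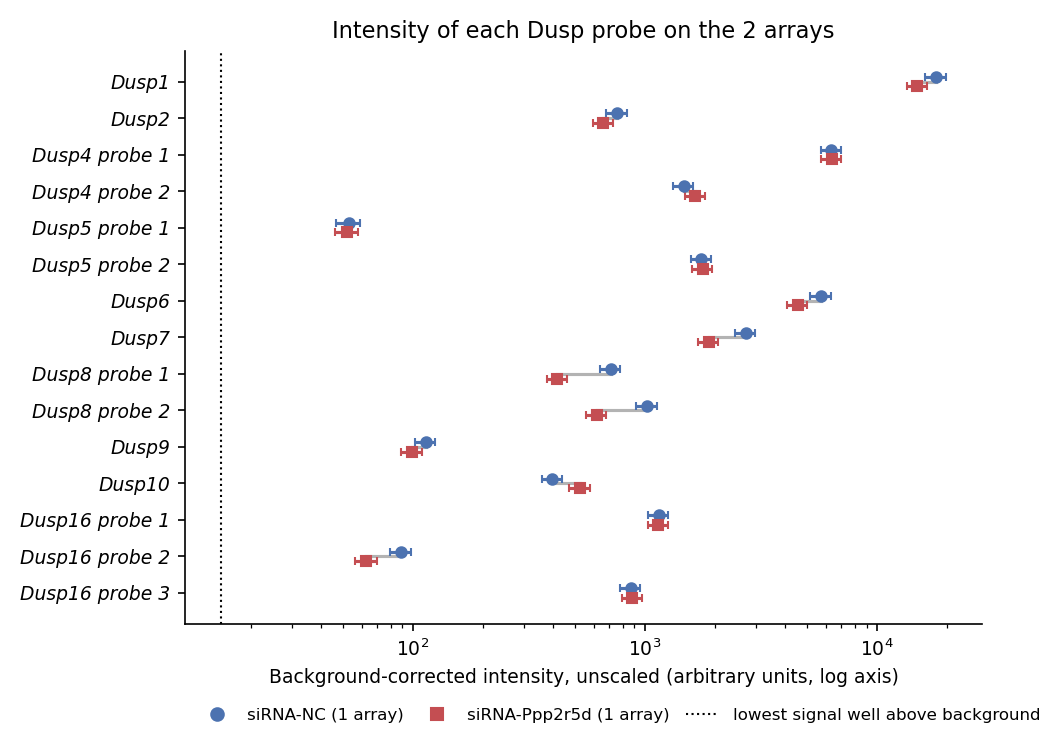
Background-corrected intensity, not scaled between arrays, of the 15 *Dusp* probes (x axis, arbitrary units on a log axis) on the siRNA-NC array (circles) and the siRNA-*Ppp2r5d* array (squares), with 1 array per group. Bars are the scanner software's error of the spot, the dotted line is the higher of the 2 lowest signals well above background, and the widest gaps between arrays are those of the 2 *Dusp8* probes.

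Among the nuclear inducible members, *Dusp1* encodes MKP-1, an immediate early phosphatase that acts on p38, JNK and ERK. Its probe (chr17:26642624-26642683 on build mm9, minus strand) had an intensity of 17951 with siRNA-NC and 14877 with siRNA-*Ppp2r5d*, a log2 fold change of -0.08. *Dusp2*, first described as PAC1 in activated immune cells, had intensities of 757 and 661 (chr2:127163930-127163989, plus strand), a log2 fold change of -0.0040. Both members differed between the arrays by less than the software error.

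*Dusp4* encodes MKP-2, a close relative of MKP-1. Its probe at chr8:35884806-35884865 (plus strand) had intensities of 6343 with siRNA-NC and 6373 with siRNA-*Ppp2r5d*, a log2 fold change of 0.20. Its other probe, at chr8:35882045-35882104, had intensities of 1467 and 1647, a log2 fold change of 0.36. The mean of both was 0.28, 1.21-fold higher, and 86.1% of genes lay below it. RefSeq lists Dusp4 as an older name of *Dusp9*, but the array placed the *Dusp4* probes on chromosome 8 and the *Dusp9* probe on chromosome X.

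*Dusp5* encodes a nuclear phosphatase selective for ERK. Its dim probe (chr19:53615682-53615741, plus strand) had intensities of 52.8 with siRNA-NC and 52.1 with siRNA-*Ppp2r5d*, a log2 fold change of 0.17. Its brighter probe (chr19:53616779-53616838) had intensities of 1748 and 1770, a log2 fold change of 0.21. Both probes had nearly equal intensities on the arrays, and the log2 fold change of the gene, 0.19, equalled the difference in scaling. The 4 nuclear members had a median log2 fold change of 0.09, with 2 above and 2 below 0.

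Of the cytoplasmic members, *Dusp6* encodes MKP-3, a feedback phosphatase of ERK whose mRNA is widely used as a readout of ERK activity. Its probe (chr10:98729985-98730044, plus strand) had an intensity of 5735 with siRNA-NC and 4541 with siRNA-*Ppp2r5d*, a log2 fold change of -0.15. *Dusp7* encodes a close relative of MKP-3 and had intensities of 2713 and 1878 (chr9:106277697-106277756, plus strand), a log2 fold change of -0.34, or 1.26-fold lower. *Dusp9* encodes MKP-4, known from placenta and insulin-responsive tissue, and had intensities of 113 and 99.2 (chrX:70888467-70888526, plus strand), a log2 fold change of 0.00092. The log2 fold change of *Dusp7* was beyond the software error, with 11.9% of genes below it, and that of *Dusp9* was within it. That of *Dusp6* was within it as reported and beyond it under quantile normalization, cyclic loess, normexp, the authors' values and spike-in scaling, where it was -0.32.

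The JNK and p38 directed members spanned the whole range of the family. *Dusp8* encodes a phosphatase of JNK and p38 that is well expressed in brain and heart. Its probe at chr7:149265636-149265695 (minus strand) had an intensity of 710 with siRNA-NC and 419 with siRNA-*Ppp2r5d*, a log2 fold change of -0.57. Its probe at chr7:149267534-149267593 had intensities of 1020.3 and 618, a log2 fold change of -0.53. Both probes were lower with siRNA-*Ppp2r5d* by similar amounts, and the mean log2 fold change was -0.55, 1.46-fold lower, with 5.30% of genes below it. The promoter window of *Dusp8*, shown above, holds 2 CREs, and *Dusp1*, whose window also holds a full CRE, was at -0.08. A relation between these motifs and the fold changes was not tested.

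*Dusp10* encodes MKP-5, which acts on JNK and p38. Its probe (chr1:185898608-185898667, plus strand) had an intensity of 398 with siRNA-NC and 524 with siRNA-*Ppp2r5d*. The log2 fold change was 0.59, just past the 1.5-fold threshold at 1.504-fold higher, and 96.7% of genes lay below it. It was read by 1 probe, so no other probe bears on it. The log2 fold changes of *Dusp10* and *Dusp8* were 1.14 apart. *Dusp10* was the member outside the 5th to 95th percentile of all genes, -0.57 to 0.49, and *Dusp8* lay just inside it.

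*Dusp16* encodes MKP-7, a phosphatase of JNK and p38 that shuttles between nucleus and cytoplasm, and its 3 probes disagreed. The probe at chr6:134665656-134665696 (minus strand) had intensities of 1147 with siRNA-NC and 1141 with siRNA-*Ppp2r5d*, a log2 fold change of 0.18. The probe at chr6:134665783-134665842 had intensities of 867 and 881, a log2 fold change of 0.22. The remaining, dim probe, at chr6:134687549-134687608, had intensities of 88.8 and 62.9, a log2 fold change of -0.31. Each of the 3 probes was designed on a different transcript record. The mean over the 3 probes was 0.03 with an SD of 0.29, against a median SD of 0.12 between the probes of a gene over 7139 genes. With the brightest probe alone the value was 0.18. Of the 4 members with several probes, *Dusp16* was the one whose probes differed in sign.

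**Figure D3:**
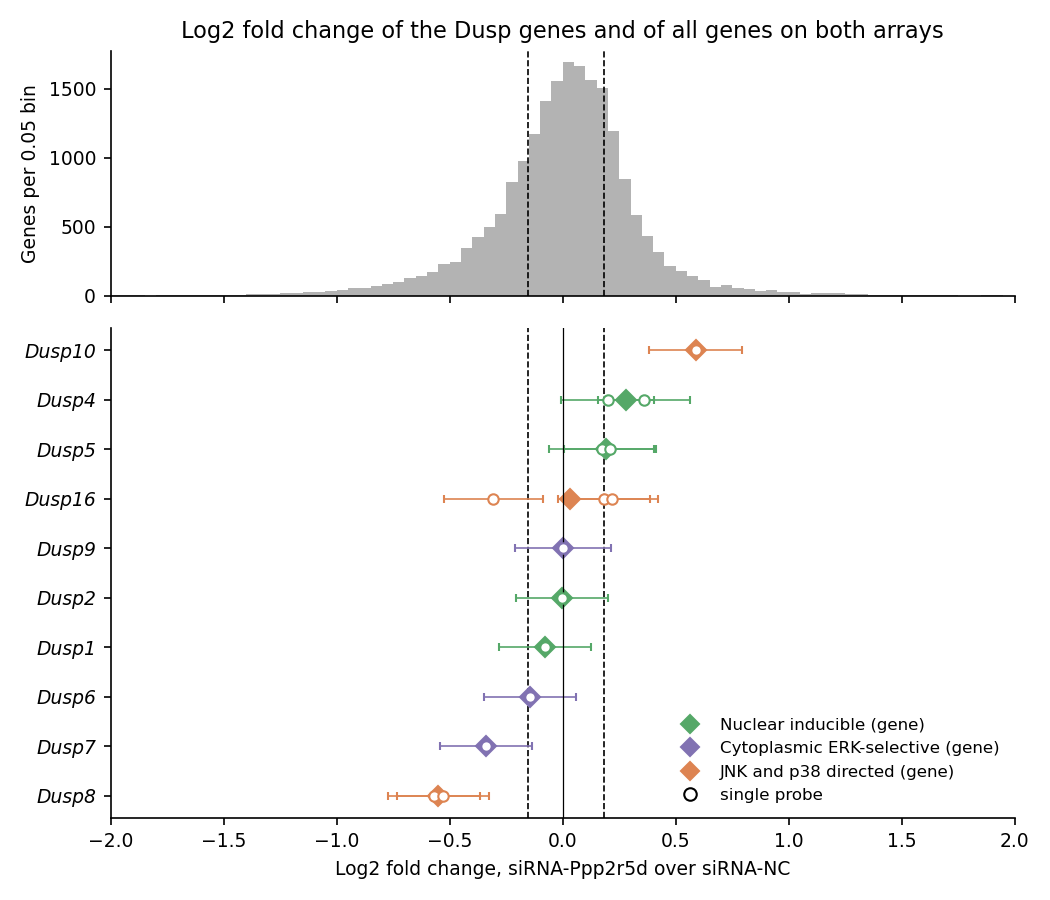
Above, the number of genes per 0.05 of log2 fold change (x axis, siRNA-*Ppp2r5d* over siRNA-NC) for genes measured on both arrays. Below, each *Dusp* gene (filled diamonds, coloured by class) and its single probes (open circles), with bars for the scanner software's error. Dashed lines are the quartiles of all genes, -0.16 and 0.18; 5 of the 10 members lie between them, with *Dusp10* at 0.59 on the right and *Dusp8* at -0.55 on the left.

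Scaling set the sign of the small values. Before scaling, 5 of the 15 probes were brighter and 10 dimmer with siRNA-*Ppp2r5d*, and after it 8 lay above and 7 below 0. Scaling by 8 spike-in control probes in place of the 75th percentile moved the median of all genes by -0.175, and there *Dusp9* was at -0.17 and *Dusp16* at -0.14. *Dusp10* was at 0.41 with the spike-in probes and 0.53 with normexp background correction, under 1.5-fold in both. With the spike-in probes *Dusp8* was 1.65-fold lower, so that past 1.5-fold there were 0 members higher and 1 lower, and *Dusp4* was at 0.10, within the software error. *Dusp8* ranged from -0.73 to -0.50 and *Dusp7* from -0.51 to -0.31 over 11 alternatives. The sign of *Dusp1*, *Dusp4*, *Dusp5*, *Dusp6*, *Dusp7*, *Dusp8* and *Dusp10* was the same under all 11, and that of *Dusp2*, *Dusp9* and *Dusp16* was not. Among the 11, the alternatives of filter, bounds and outlier flags left the member probes as they were.

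**Figure D4:**
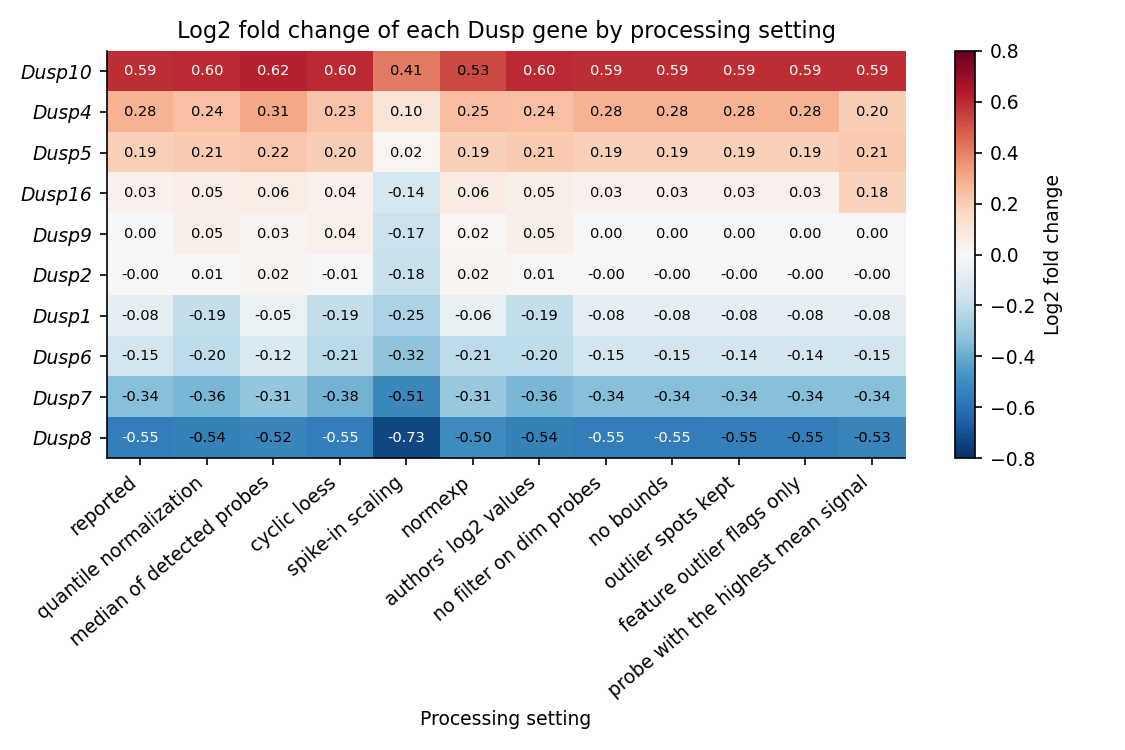
Log2 fold change (colour and number in each cell) of the 10 *Dusp* genes (rows) as reported and under 11 alternative settings (columns). The spike-in column is shifted towards lower values for every gene, and *Dusp10* in the first row and *Dusp8* in the last keep their signs in every column.

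The substrates and regulators of these phosphatases were described by lists of genes, each with counts and a median and no test. All 10 MAP kinases were measured on both arrays, 2 above and 8 below 0, with a median log2 fold change of -0.08, beside 46.0% of all genes below 0 and a median of 0.02. *Mapk10*, which encodes the JNK isoform of brain and heart, JNK3, was 2.54-fold higher, with an intensity of 66.9 with siRNA-NC and 149 with siRNA-*Ppp2r5d*. This rested on 1 of its 4 probes, the other 3 being not well above background on either array, and the log2 fold change of 1.35 was 0.86 with normexp and 0.46 with no filter on dim probes, under 2-fold in both. No MAP kinase was 2-fold lower. The shares of all genes past 2-fold were 1.01% upward and 1.42% downward. *Mapk13*, which encodes p38 delta, was lowest, with intensities of 34.7 and 15.3 and a log2 fold change of -0.99, which was -1.17 with the spike-in probes and -0.02 with normexp.

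Beside 1.01% of all genes at least 2-fold higher and 1.42% lower, none of the 7 MAP2 kinases was 2-fold changed, and they ranged from 0.02 for *Map2k1*, the MEK1 kinase of ERK, to -0.50 for *Map2k6*, a kinase of p38. None of the 17 RAF and MAP3 kinases was either, from 0.51 for *Map3k10* to -0.52 for *Map3k9*, both mixed lineage kinases upstream of JNK. Of the kinases that MAP kinases activate, 10 of 11 were measured on both arrays and none was 2-fold changed, from 0.31 for *Rps6ka3* to -0.32 for *Rps6ka1*, both ribosomal S6 kinases. The 7 scaffolds ranged from 0.36 for *Lamtor3*, which holds MEK1 and ERK at endosomes, to -0.39 for *Mapk8ip1*, a JNK scaffold, again with none 2-fold changed. Values above and below 0 numbered 2 and 5 for the MAP2 kinases, and 12 and 5 for the RAF and MAP3 kinases. They numbered 6 and 4 for the kinases that MAP kinases activate, and 3 and 4 for the scaffolds. The median log2 fold changes, in that order, were -0.08, 0.06, 0.06 and -0.17.

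Transcripts that ERK activity induces were listed beside *Dusp6*. Of 13 on this list, 12 were measured on both arrays, 4 above and 8 below 0, beside 46.0% of all genes below 0, with a median log2 fold change of -0.08. *Ccnd1*, which encodes cyclin D1, was 2.15-fold lower, with an intensity of 16370 with siRNA-NC and 6661 with siRNA-*Ppp2r5d*. It was read by 1 probe, and its log2 fold change ranged from -1.28 to -1.08 over the alternatives. The other genes of the list measured on both arrays ranged from 0.54 for *Epha4* to -0.39 for *Fos*. No gene of the list was 2-fold higher, where 1.01% of all genes passed 2-fold upward and 1.42% downward. Of the Sprouty and SPRED inhibitors of ERK signalling, 5 were measured on both arrays, from 0.20 for *Spry1* to -0.14 for *Spred2*. Of these 5, 3 lay above and 2 below 0, with a median of 0.04. *Spry4* was well above background with siRNA-NC only, with intensities of 18.7 and 5.45, near the lowest passing signals of 14.9 and 13.5. As a bound it was at least 1.22-fold lower. With no filter on dim probes, 1 gene of the Sprouty and SPRED list and 2 of the ERK list were 2-fold lower, beside 1106 of 37000 genes.

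Of the other phosphatases of MAP kinases, 5 of 6 were measured and none was 2-fold changed. Among all genes, 1.01% passed 2-fold upward and 1.42% downward. *Ptprr*, a tyrosine phosphatase of ERK, was highest at 0.71, from a dim probe with intensities of 25.2 and 36.1, and *Ppm1a*, a serine/threonine phosphatase of the PP2C family, was lowest at -0.13. Of 15 atypical dual specificity phosphatases, which lack the MAP kinase binding domain of the MKPs, 13 were measured on both arrays. Of these 13, 7 lay above and 6 below 0, with a median of 0.0985, and again none was 2-fold changed. With all-gene shares this low, the absence of such changes among 5 or 13 genes says little about these lists. *Dusp26* was highest at 0.46, with intensities of 23.2 and 27.9, and *Dusp27* lowest at -0.73, with intensities of 44.1 and 23.2, and both were dim. With normexp *Ptprr* was at 0.35 and *Dusp27* at -0.15. With the spike-in probes the medians of all 9 lists lay below 0, and so did the median of all genes, at -0.15. The list medians there ran from -0.35 for the scaffolds to -0.08 for the atypical phosphatases, on both sides of that value.

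**Figure D5:**
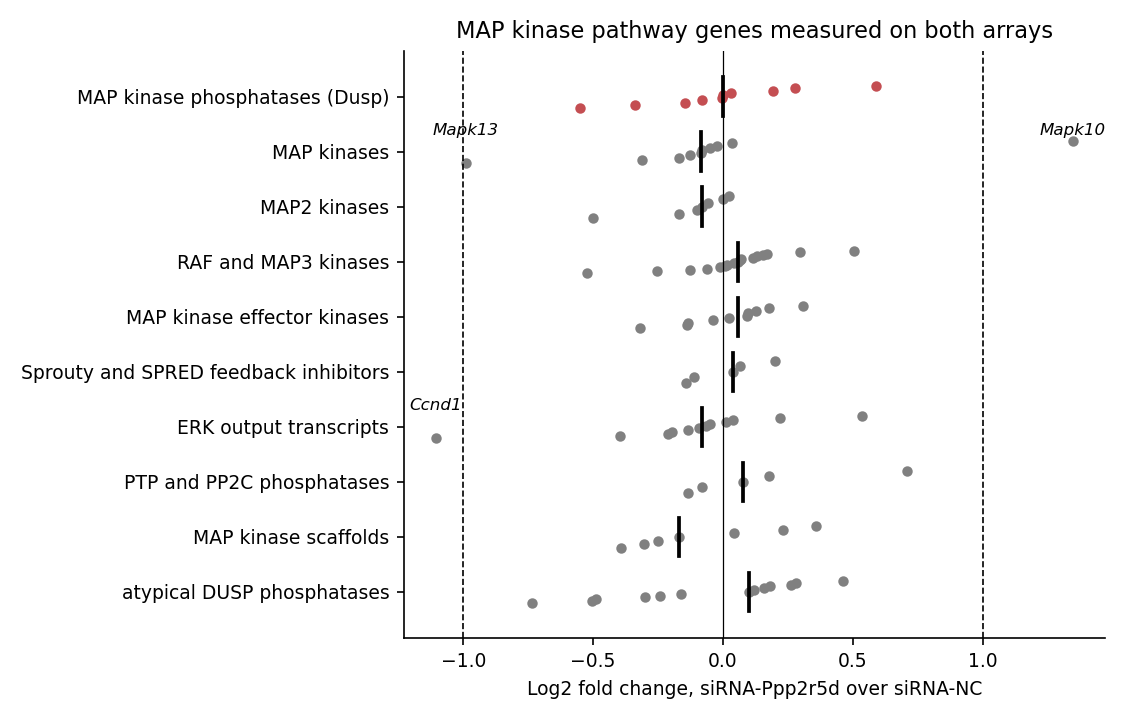
Log2 fold change (x axis, siRNA-*Ppp2r5d* over siRNA-NC) of genes measured on both arrays, 1 row per list, with 1 point per gene and a bar at the median of the list. Dashed lines mark 2-fold; *Mapk10* at 1.35 and *Ccnd1* at -1.11 lie beyond them and *Mapk13* at -0.99 just inside, and the 10 *Dusp* members (top row) lie between -0.55 and 0.59.

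The label of the cells was set against marker genes. Of 13 cardiomyocyte markers, 7 were well above background on both arrays, namely *Tnnt2*, *Actc1*, *Nkx2-5*, *Ttn*, *Myh7*, *Tnni3* and *Nppa*. Of these, *Myh7* (intensities of 48.15 with siRNA-NC and 42.82 with siRNA-*Ppp2r5d*), *Tnni3* (44.95 and 34.56) and *Nppa* were dim. *Tnnt2* passed on 1 of its 3 probes and *Myh7* on 1 of its 2. *Actn2*, *Myl2*, *Myl7* and *Pln* were not well above background on either array. *Myh6* and *Ryr2* were well above background with siRNA-*Ppp2r5d* only, each on 1 probe and close to the lowest signals that pass. Intensities with siRNA-NC and siRNA-*Ppp2r5d* were 12.38 and 14.25 for *Myh6*, and 8.09 and 19.25 for *Ryr2*. As bounds, *Myh6* was at least 1.09-fold and *Ryr2* at least 1.475-fold higher. Of 8 fibroblast markers, 6 passed on both arrays, and *Tcf21* and *Thy1* on neither. Intensities were summed over each list to compare the arrays, and the sums of different lists rest on different probes and are not comparable. Before scaling the sum was 9650 with siRNA-NC and 8961 with siRNA-*Ppp2r5d* for the cardiomyocyte markers, 302400 and 282500 for the fibroblast markers, and 141900 and 129700 for the 4 smooth muscle markers. Of the smooth muscle markers, *Cnn1* was 5.31-fold higher with siRNA-*Ppp2r5d*, and the log2 fold change was 0.85 for *Tagln*, -0.02 for *Acta2* and -0.38 for *Myh11*. Among the others at least 1.5-fold changed, it was 0.89 for *Ttn* and 0.62 for *Nppa* of the cardiomyocyte markers, 0.62 for *Pdgfra* of the fibroblast markers and -0.77 for *Cd68* of the macrophage markers. The value of *Nppa* came from 1 of its 2 probes, with intensities of 16.6 with siRNA-NC and 22.4 with siRNA-*Ppp2r5d*. These were near the lowest signals well above background, 14.9 and 13.5. The macrophage markers, 3 of 4 of them measured on both arrays, summed to 2318 and 1693. The endothelial markers, 1 of 4 measured on both arrays and *Cdh5* and *Kdr* on neither, summed to 75.95 and 69.58. After scaling, the log2 ratio of the sums was 0.08 for cardiomyocyte, 0.09 for fibroblast, 0.06 for smooth muscle, 0.07 for endothelial and -0.26 for macrophage markers. The sums took the brightest probe of each gene on each array, also where it was dim. Over the markers measured on both arrays, the median log2 fold change was 0.08 for cardiomyocyte, -0.09 for fibroblast and 0.41 for smooth muscle markers. It was -0.07 for macrophage markers and -0.23 for *Pecam1*, the endothelial marker measured on both arrays. Fewer cells of a type and less RNA per cell cannot be told apart in bulk RNA, and the part of these markers in the *Dusp* values was not tested.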

How the data were processed

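RNA of MCMs was measured on 2 one-colour arrays, 1 per condition, with the condition given by each sample's label. The authors deposited spot intensity values from Agilent Feature Extraction 10.7.1.1, which subtracts background on each array and leaves the arrays unscaled. A second deposited table holds log2 values, and these differed from quantile-normalized log2 intensities by a median of 0.000127 over 56452 probes. The methods name GeneSpring and no normalization. On each array 59305 spots were not controls, with 35544 well above background for siRNA-NC and 35174 for siRNA-*Ppp2r5d*.

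Control spots and spots with an outlier flag (226 and 188) were left out. The first run used the feature outlier flags alone (126 and 95 spots). The flag for a non-uniform local background was added after those values had been seen, so that the rule would match an earlier processing of these data, and the first rule is kept as an alternative. Log2 intensities were averaged over the spots of a probe, each array was centred on the 75th percentile of its non-control probes, and a gene took the mean of those of its probes that both arrays measured well above background. Where 1 array alone measured a gene, its fold change is a bound, from the lowest signal well above background on the other.

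No test was run, since there was 1 array per condition. Called means at least 2-fold. The members and gene lists were chosen with earlier results of these data known. Named genes are the members, *Ppp2r5d* and, of each list, up to 5 genes past 2-fold or else the highest and lowest. *Mapk13*, *Epha4*, *Fos*, the marker genes and the comparison with the software error were chosen after their values were seen. Alternatives were cyclic loess, quantile normalization, spike-in scaling, scaling to the median of detected probes, the authors' log2 values, normexp (offset 50), no filter on dim probes, no bounds, outlier spots kept, feature outlier flags only, the probe with the highest mean signal, and thresholds of 1.5-fold and 4-fold. The steps were tested on a copy of the siRNA-NC array with noise added and known changes put into brighter genes. Those changes were larger than that of any member. Genes read by dim probes alone or measured on 1 array alone were not covered. Probe coordinates are those of the array annotation, build mm9, and the exon or untranslated region each falls in was not analysed here. Names and promoter windows came from RefSeq tables of GRCm38.p6, which held the accessions of 11 of the 15 member probes. Software was limma 3.58.1 in R 4.3.3, and in Python 3.11.15 pandas 2.3.3, NumPy 2.4.6 and matplotlib 3.10.9.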

Additional observations from a re-analysis of the deposited data

How the results depend on the processing

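No member was 2-fold higher or lower under any of the 11 alternatives of scaling, background, filter and probe choice, so none could be at 4-fold. At 1.5-fold 1 member, *Dusp10*, was higher. The alternatives are not all separate checks. Every member probe was well above background and unflagged on both arrays, so the settings of filter and bounds could not change the members. The settings of outlier flags moved them only through the scaling, and the authors' values nearly repeated quantile normalization. At 1.5-fold no member was past the threshold with normexp, and *Dusp8* alone, lower, with the spike-in probes. Scaling to the spike-in probes moved the median log2 fold change of the members to -0.18, with the median of all genes moved by -0.175, and the other alternatives moved the members' median by less than the spread between spots. Over all genes the 2-fold counts were 219 higher and 308 lower (58.4% lower). They were 133 and 539 (80.2% lower) with the spike-in probes, 62 and 44 (41.5% lower) with normexp, and 937 and 1106 with no filter on dim probes. The cause of these shifts was not tested. Using the feature outlier flags alone, the rule first run and replaced after its values were seen, gave 233 higher and 316 lower among 21694 genes and changed no member's sign or side of 2-fold. No paired analysis was possible because each condition has 1 array, and for the same reason no replicate could be left out.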
